A study of Mus musculus with 17 samples.

Results

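The 10 genes described here build and control the hypoxia-inducible factors (HIFs): the alpha subunits Hif1a, Epas1 (the gene of HIF2a) and Hif3a, their partners Arnt and Arnt2, the ubiquitin ligase gene Vhl, the prolyl hydroxylases Egln1, Egln2 and Egln3, and the asparaginyl hydroxylase Hif1an. They were chosen by name and not by their values. They are 10 of 35971 genes summed from single transcripts, they hold 47 of the 116770 transcripts matched to the annotation, and all 10 were among the 17011 genes that passed the filter on low counts. A HIF is a pair of an alpha subunit and an ARNT subunit. When oxygen is present, EGLN enzymes hydroxylate prolines of the alpha subunit, VHL binds the hydroxylated protein and marks it for destruction, and HIF1AN (FIH) hydroxylates an asparagine and so blocks the binding of coactivators. When oxygen is low the alpha subunit persists, and Egln1 and Egln3 are themselves known HIF targets. Loss of VHL is the hallmark of clear cell renal carcinoma.

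PolyA RNA of 17 mouse kidneys in 5 groups was sequenced. All 5 groups carried the lsl-PRCC-TFE3 allele, in which a stop cassette keeps the PRCC-TFE3 fusion of renal carcinoma silent until Cre removes it. KSP-Cre is driven by the Cdh16 promoter of kidney tubular epithelium. The 4 Cre(-) kidneys had no KSP-Cre; kidneys 1 and 2 of this group also carried HIF1af/f, and kidneys 3 and 4 carried no floxed HIF allele. The other groups carried KSP-Cre: 3 KI kidneys without a floxed HIF allele, 4 Hif1a KO kidneys with HIF1af/f, 3 Hif2a KO kidneys with HIF2af/f, and 3 DKO kidneys with both floxed genes. The labels give no age, sex or strain and do not say whether each kidney came from its own mouse, so that p-values measure the spread between these kidneys. No Cre(+) kidney lacked the fusion allele. Vessels, stroma and immune cells lie outside the Cre driver and keep intact HIF genes in every group.

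Libraries held 16504419 to 24668827 expected counts with a median of 18635282, and 3 counts, taken as the lowest level that a library can show, equalled 0.117 to 0.206 CPM (counts scaled to library size with TMM factors). The summed level of 10 proximal tubule markers was 19545 to 25383 CPM in the Cre(-) kidneys and 730 to 849 CPM in the KI kidneys. Leukocyte markers went the other way, from 196 to 255 CPM in Cre(-) to 1707 to 1902 CPM in KI kidneys. In whole tissue, fewer cells of a type and less RNA per cell cannot be told apart, and the part of these shifts in the values that follow was not tested.

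The floxed Hif1a and Epas1 lines in common use lose the second exon, which encodes part of the DNA-binding helix-loop-helix region. The second exons of Hif1a-201 (of 15 exons) and Epas1-201 (of 16 exons) are shown because the genotypes turn on them and because reads of the paralogs have to be told apart there. In GRCm38 they lie at chr12:73926557-73926747 and chr17:86797116-86797306, both on the plus strand. Each is 191 bases long and wholly coding, which leaves 2 bases over after whole codons. Capitals mark the 126 of 191 positions (66.0%) that are identical without gaps.
Hif1a exon: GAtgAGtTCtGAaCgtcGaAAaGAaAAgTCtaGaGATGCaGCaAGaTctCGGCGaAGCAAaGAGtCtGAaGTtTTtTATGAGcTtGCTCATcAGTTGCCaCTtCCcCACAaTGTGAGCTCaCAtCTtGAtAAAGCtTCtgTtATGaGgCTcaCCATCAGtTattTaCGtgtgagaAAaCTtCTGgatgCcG
Epas1 exon: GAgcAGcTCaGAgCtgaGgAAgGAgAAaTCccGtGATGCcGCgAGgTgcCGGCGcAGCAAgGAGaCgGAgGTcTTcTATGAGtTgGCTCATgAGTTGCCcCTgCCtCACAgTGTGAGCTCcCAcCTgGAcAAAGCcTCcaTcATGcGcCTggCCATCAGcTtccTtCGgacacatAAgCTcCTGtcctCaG
The longest identical run is 9 bases.

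Promoter letters are shown for Hif1a and Vhl, which were both higher in KI than in Cre(-) kidneys but differ in the motifs searched for. TFE3 is known to bind E-box letters such as CACGTG, while HIF pairs are known to bind ACGTG as well as GCGTG. RefSeq windows in GRCm38.p6, from 250 bases before to 50 after a gene's start, were found for 9 of the 10 members, Epas1 being the exception. Capitals mark CACGTG and ACGTG in the stretch before each start, chr12:73907717-73907866 for Hif1a and chr6:113623844-113623958 for Vhl, both on the plus strand.
Hif1a promoter: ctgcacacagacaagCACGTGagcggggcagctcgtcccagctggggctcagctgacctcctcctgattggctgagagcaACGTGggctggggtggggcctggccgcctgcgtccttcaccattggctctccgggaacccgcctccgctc
Vhl promoter: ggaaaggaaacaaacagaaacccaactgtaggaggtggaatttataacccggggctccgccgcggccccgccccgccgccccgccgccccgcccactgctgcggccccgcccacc
The Hif1a window held CACGTG with its first base at -135 from the start, which on the minus strand extends to TCACGTG and which contains ACGTG on both strands, and 1 further ACGTG. The windows of Vhl, Arnt2 and Hif1an held no match to any of the 5 motifs searched on both strands, namely CACGTG, then TCACGTG which contains it, then TCATGTG, and the HIF cores ACGTG (also part of CACGTG) and GCGTG. Egln2 held TCACGTG at -5, with 3 ACGTG and 3 GCGTG matches in that window, and GCGTG at -116 in a second window. Egln3 held TCATGTG at -244 and ACGTG at -229, and Egln1 held ACGTG at -68 and GCGTG at -126. Arnt held GCGTG at -29, and Hif3a held it at -230 and -186. Over 32851 promoters of the same length, CACGTG was present in 7.15%, TCACGTG in 3.77%, TCATGTG in 3.77%, ACGTG in 19.6% and GCGTG in 32.4%. A match is a description of letters and not of binding.

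Hif1a, Arnt2 and Vhl were higher and Epas1 and Egln1 lower in KI than in Cre(-) kidneys on the count scale. These 5 of 10 members were called in KI against Cre(-) kidneys, where 60.9% of all genes tested were called, so the number called is no more than the background share. The members' median log2 fold change was 0.12 and that of all genes 0.03. The other 5 members, Hif3a, Arnt, Egln2, Egln3 and Hif1an, had log2 fold changes from -0.36 to 0.33 and were not called (quasi-likelihood test of edgeR, p-values adjusted over all genes by the method of Benjamini and Hochberg, as for every adjusted p that follows unless another test is named).

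**Figure D1:**
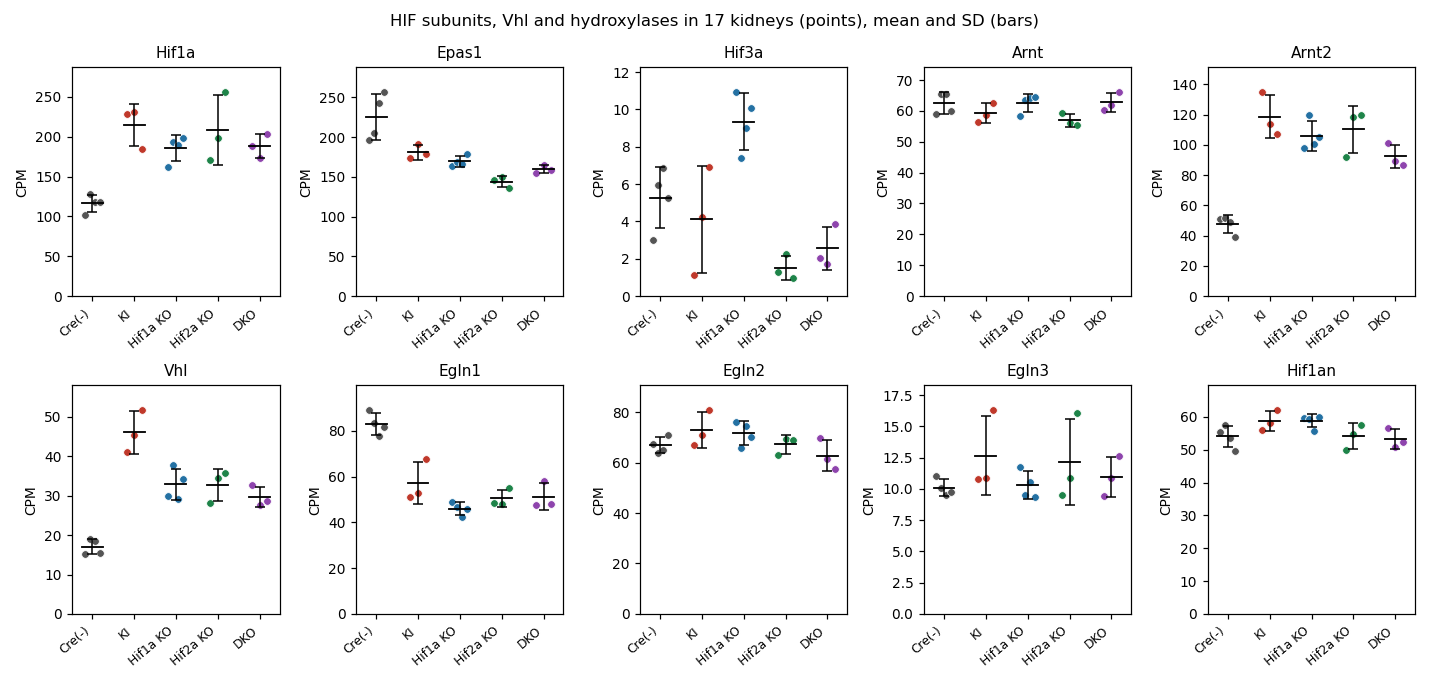
Level of each of the 10 members in CPM (linear axes from 0) in every kidney (points), by group, with the mean and SD of each group (bars). Vhl runs from 15.3 to 18.9 CPM in Cre(-) and from 41.0 to 51.8 CPM in KI kidneys, and Hif3a differs between Hif1a KO (7.37 to 10.9 CPM) and Hif2a KO kidneys (0.962 to 2.23 CPM).

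Hif1a, the alpha subunit found in nearly every cell type, stood at 102, 128, 118 and 118 CPM in the Cre(-) kidneys and at 228, 232 and 184 CPM in the KI kidneys. The groups did not overlap. Its log2 fold change was 0.88 (SE 0.13, 1.84-fold, edgeR adjusted p = 2.47e-05). Against the Cre(-) kidneys with and without HIF1af/f taken separately it was 0.91 and 0.87.

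Epas1, whose product is prominent in endothelium and in the renal interstitium, stood at 196, 205, 243 and 257 CPM in Cre(-) and at 173, 192 and 179 CPM in KI kidneys. The highest KI kidney lay below the lowest control. The log2 fold change was -0.31 (SE 0.09, edgeR adjusted p = 0.0059). Against the Cre(-) kidneys with HIF1af/f alone it was -0.14 (edgeR adjusted p = 0.137), and against those without a floxed allele it was -0.46 (edgeR adjusted p = 0.00027). Endothelial markers fell as well, with 8 of 10 called lower in KI and a summed level of 496 to 533 CPM against 648 to 949 CPM in Cre(-), and their part in the Epas1 value was not tested.

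Hif3a, an alpha subunit with several short forms that can restrain the other HIFs, was scarce. It stood at 3.02, 5.94, 6.88 and 5.24 CPM in Cre(-) and at 1.15, 4.25 and 6.90 CPM in KI kidneys, with overlap (log2 fold change -0.36, SE 0.45, edgeR adjusted p = 0.507).

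Of the ARNT partners, Arnt2 was called and Arnt was not. Arnt2, best known from neurons, stood at 50.7, 51.8, 48.7 and 39.2 CPM in Cre(-) and at 134.9, 113.9 and 107.2 CPM in KI kidneys. All KI values were above all control values, and the log2 fold change was 1.32 (SE 0.12, 2.49-fold, edgeR adjusted p = 2.02e-07). Arnt ranged from 59.1 to 65.6 CPM in Cre(-) and from 56.4 to 62.7 CPM in KI kidneys (log2 fold change -0.08, edgeR adjusted p = 0.305).

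Vhl, the substrate receptor of the ligase that destroys hydroxylated alpha subunits, stood at 15.3, 18.9, 18.5 and 15.5 CPM in Cre(-) and at 41.0, 45.4 and 51.8 CPM in KI kidneys. The groups did not overlap, and the log2 fold change was 1.43 (SE 0.12, 2.7-fold, edgeR adjusted p = 9.2e-08).

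Of the hydroxylases, Egln1 (PHD2), the main oxygen sensor in most tissues, stood at 89.1, 83.3, 77.9 and 81.5 CPM in Cre(-) and at 51.3, 52.6 and 67.7 CPM in KI kidneys. The groups did not overlap, and the log2 fold change was -0.54 (SE 0.10, 0.689-fold, edgeR adjusted p = 0.000268). Egln2 (PHD1) had a log2 fold change of 0.13 (edgeR adjusted p = 0.201), Egln3 (PHD3) of 0.33 (SE 0.18, edgeR adjusted p = 0.132) and Hif1an of 0.12 (edgeR adjusted p = 0.139). For Egln3 the values were 11.0, 10.1, 9.53 and 9.72 CPM in Cre(-) and 10.8, 10.9 and 16.3 CPM in KI kidneys, so that KI kidney 3 alone stood above the controls.

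The direction of the smaller changes depends on the scale. On log2(TPM + 1), where TPM is the deposited level corrected for transcript length, the median of all genes in KI against Cre(-) was 0.38 rather than 0.03. On that scale 7 members were called higher and 0 lower by limma, against 3 higher and 2 lower on the count scale, and Epas1 stood at 0.14 and Egln1 at -0.08. The share of all genes called on that scale is not given here, so these counts are no result about the members. Relative to the all-gene median of that scale, Vhl was at 1.29, Arnt2 at 1.26, Hif1a at 0.93, Epas1 at -0.23 and Egln1 at -0.45.

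**Figure D2:**
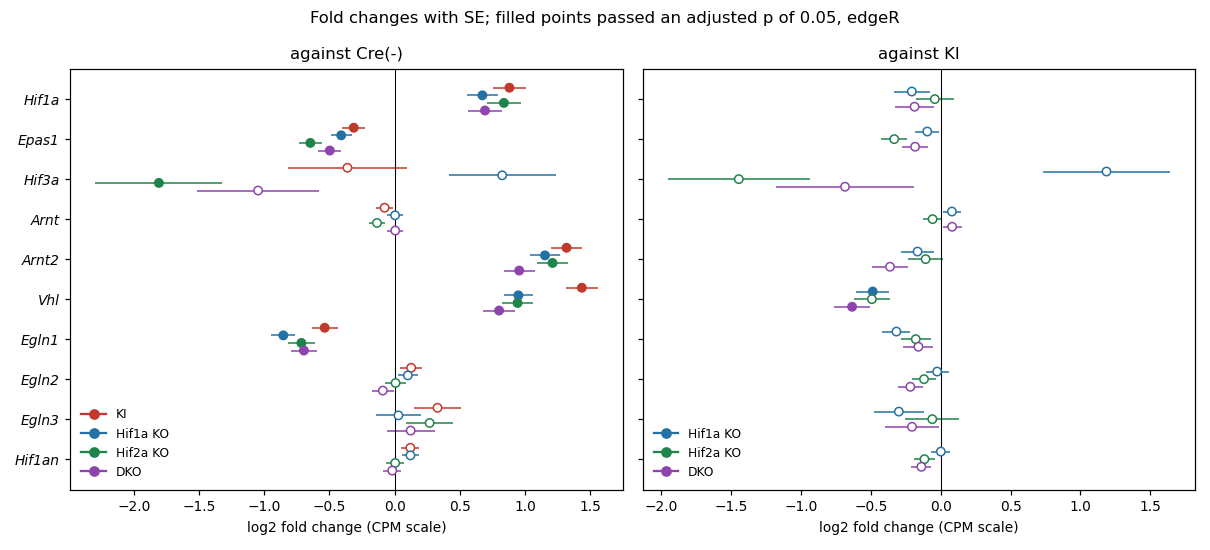
Log2 fold change of each member with its standard error, against Cre(-) kidneys (left) and against KI kidneys (right), with filled points for calls at an adjusted p of 0.05. Vhl lies at 1.43 in KI against Cre(-) and below 0 in each comparison of a knockout group with KI.

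The 3 groups with a HIF deletion were set against the same 4 Cre(-) kidneys, so these comparisons share their controls with each other and with the one above. In Hif1a KO against Cre(-) kidneys 5 members were called, where 61.9% of all genes were called. In Hif2a KO kidneys 6 members were called, against a background of 61.9%, and in DKO kidneys 5, against 58.3%. Hif1a lay 0.67, 0.84 and 0.69 above Cre(-) on the log2 scale in Hif1a KO, Hif2a KO and DKO kidneys, and Arnt2 lay 1.15, 1.21 and 0.95 above. Vhl lay 0.95, 0.94 and 0.80 above. Each of these 9 values was called, as were the values of Epas1 (-0.41, -0.65 and -0.50) and Egln1 (-0.85, -0.72 and -0.70). On log2(TPM + 1), limma kept the Egln1 call in Hif1a KO (-0.40) and not in Hif2a KO (-0.19, adjusted p = 0.0855) or DKO kidneys (-0.15, adjusted p = 0.172), and Epas1 stood at 0.02, -0.12 and 0.04, none of them called. The sixth member called in Hif2a KO kidneys was Hif3a at -1.81 (SE 0.49, edgeR adjusted p = 0.00451).

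The total level of a gene is no measure of a lost exon, and edgeR called neither deletion on its own gene. Hif1a stood at 163, 193, 189 and 198 CPM in Hif1a KO kidneys. In DKO kidneys it stood at 188, 174 and 203 CPM, and both groups overlapped the KI range. Epas1 stood at 146, 149 and 136 CPM in Hif2a KO kidneys. In DKO kidneys it stood at 155, 165 and 158 CPM, and both groups lay below every KI kidney. In Hif2a KO against KI the Epas1 log2 fold change was not called by edgeR (adjusted p = 0.0788) and was called by DESeq2 (-0.33, adjusted p = 0.0139). For the averaged Hif2a deletion DESeq2 also called Epas1 (-0.21, adjusted p = 0.0171), as did edgeR on the groups of the contrast alone (adjusted p = 0.028) or without KI kidney 1 (adjusted p = 0.0496). The share of Hif1a counts in annotated transcripts that hold the second exon was 99.7% in the 7 kidneys with the Hif1a deletion and 99.7% in the 6 other Cre(+) kidneys (difference 0.02 percentage points, exact permutation p = 0.756, two-sided). For Epas1 the difference was -0.01 percentage points (exact permutation p = 0.923, two-sided). The annotated transcripts without the exon hold almost no counts in any group, and a transcript that skips this exon alone is not an entry of its own, so these shares do not measure the deletion.

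Vhl was lower in the knockout groups than in KI. It stood at 29.99, 37.9, 29.3 and 34.3 CPM in Hif1a KO, at 28.2, 34.4 and 35.7 CPM in Hif2a KO, and at 32.6, 27.7 and 28.8 CPM in DKO kidneys. All 10 values lay below all 3 KI values and above all 4 Cre(-) values. Against KI the log2 fold change was -0.49 in Hif1a KO (SE 0.12, edgeR adjusted p = 0.0288), -0.49 in Hif2a KO (SE 0.13, edgeR adjusted p = 0.0608) and -0.63 in DKO kidneys (SE 0.13, edgeR adjusted p = 0.00696). Vhl was thus the 1 member called in Hif1a KO against KI, where 5.44% of all genes were called, and the 1 member called in DKO against KI, where 12.7% were called. No member was called in Hif2a KO against KI by edgeR, where 1.39% of genes were called. Under an unadjusted p of 0.05 were 3 members and 3262 of all 17011 genes. DESeq2 called 2 members, and its share of all genes is not given here. The Hif1a KO call was lost when KI kidney 2, KI kidney 3, Hif1a KO kidney 1 or Hif1a KO kidney 3 was left out (edgeR adjusted p = 0.0715, 0.106, 0.0813 and 0.0915). On log2(TPM + 1), limma called Vhl against KI neither in Hif1a KO (-0.50, adjusted p = 0.0725) nor in DKO kidneys (-0.51, adjusted p = 0.0553).

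Egln1 stood at 48.9, 46.8, 42.3 and 45.6 CPM in Hif1a KO kidneys, below every KI kidney, but was not called against KI (log2 fold change -0.32, SE 0.10, edgeR adjusted p = 0.0768). Arnt2 in DKO kidneys stood at 101, 89.2 and 86.5 CPM, also below every KI kidney, and was not called (log2 fold change -0.36, edgeR adjusted p = 0.0734).

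Hif3a differed between the single knockouts. It stood at 10.9, 7.37, 9.02 and 10.1 CPM in Hif1a KO kidneys and at 1.3, 2.23 and 0.962 CPM in Hif2a KO kidneys, without overlap. The log2 difference was 2.63 (SE 0.49, 6.2-fold, edgeR adjusted p = 0.0336), and Hif3a was the 1 member called in that comparison, where 0.429% of all genes were called. Against KI the values were 1.19 in Hif1a KO (SE 0.46, edgeR adjusted p = 0.14) and -1.45 in Hif2a KO kidneys (SE 0.51, edgeR adjusted p = 0.141), neither called. On log2(TPM + 1), limma called the Hif1a KO value (0.84, adjusted p = 0.0482), and not on log2(TPM + 0.1). In DKO kidneys Hif3a stood at 2.05, 1.74 and 3.86 CPM. The call of the direct difference was lost when any of 6 of the 7 kidneys was left out, Hif1a KO kidney 2 being the exception, with log2 differences from 2.40 to 3.04 and edgeR adjusted p from 0.0456 to 0.17.

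Averaged over the state of the other gene, Hif3a was lower in kidneys with the Hif2a deletion (log2 fold change -1.66, SE 0.35, edgeR adjusted p = 0.0132). That call held without any single kidney. Vhl was lower as well, at -0.32 (SE 0.09, edgeR adjusted p = 0.0389). The Vhl call was lost without KI kidney 2 or 3, Hif1a KO kidney 2 or 4, Hif2a KO kidney 1 or 2, or DKO kidney 2 or 3, with edgeR adjusted p up to 0.106. These were 2 of 10 members, where 7.16% of all genes were called. The Hif1a deletion averaged in the same way called 0 members by edgeR, where 4.36% of genes were called. At an unadjusted p under 0.05 were 4 members and 3735 of all 17011 genes. DESeq2 called 2 members, and its share of all genes is not given here. For the interaction of the deletions edgeR called 0 members and 0% of all genes, with 1 member (Egln1, 0.34) and 1013 genes at an unadjusted p under 0.05.

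Per unit of length the order of the members differed between Cre(-) and KI kidneys. In Cre(-) kidneys the order by mean TPM was Epas1 (45.8), Egln2 (39.8), Hif1a (28.8), Egln1 (25.8), Arnt (18.5), Hif1an (9.75), Arnt2 (9.68), Vhl (7.69), Egln3 (4.27) and Hif3a (1.02). In KI kidneys it was Hif1a (72.6), Egln2 (61.1), Epas1 (50.5), Arnt2 (32), Vhl (26.6), Egln1 (24.5), Arnt (23.5), Hif1an (14.6), Egln3 (7.35) and Hif3a (1.24). Among neighbours in Cre(-) kidneys, Epas1 and Egln2, Hif1a and Egln1, and Hif1an, Arnt2 and Vhl overlapped in range. In KI kidneys Hif1a overlapped Egln2, and Arnt2 overlapped Vhl, Vhl overlapped Egln1, and Egln1 overlapped Arnt.

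Shares of TPM within a kidney do not depend on how kidneys are scaled to each other. The 6 shares tested were chosen after the values had been seen, and the adjustment over 6 does not cover that choice. Hif1a made up 38.6% ± 3.60 (SD, n = 4) of the Hif1a and Epas1 sum in Cre(-) kidneys, 58.8% ± 2.85 (SD, n = 3) in KI, 57.0% ± 1.62 (SD, n = 4) in Hif1a KO, 63.2% ± 5.59 (SD, n = 3) in Hif2a KO and 59.1% ± 2.63 (SD, n = 3) in DKO kidneys. The 13 Cre(+) kidneys lay above the 4 Cre(-) kidneys without overlap, by 20.7 percentage points (exact permutation p = 0.00084, two-sided, the smallest that 4 against 13 allow, adjusted p = 0.00126 over 6 shares). Arnt2 rose from 34.3% ± 3.01 of the Arnt and Arnt2 sum in Cre(-) to 57.5% ± 2.87 in KI kidneys, and the Cre(+) kidneys were higher by 19.4 percentage points, again without overlap and at the same exact permutation p.

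Within the prolyl hydroxylases the balance moved from Egln1 to Egln2. Egln1 made up 36.9% ± 1.6 of the 3 Egln genes in Cre(-) and 26.3% ± 1.01 in KI kidneys, and the Cre(+) kidneys were lower by 11.3 percentage points (difference -11.3, no overlap, the same exact permutation p). Egln2 went from 57.0% ± 1.91 to 65.8% ± 2.00, with Cre(+) kidneys higher by 9.56 percentage points and no overlap. The Egln3 share was 6.10% in Cre(-) and 7.87% in KI kidneys, and Cre(+) kidneys were higher by 1.72 percentage points with overlapping ranges (exact permutation p = 0.00168, adjusted p = 0.00202). The Hif3a share of the 3 alpha subunits did not pass the test (exact permutation p = 0.903). The 3 Egln shares depend on each other. As all 6 shares were picked from values already seen, their p-values describe a separation and lend it no further support. How often shares of other genes separate these kidneys was not tested.

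**Figure D3:**
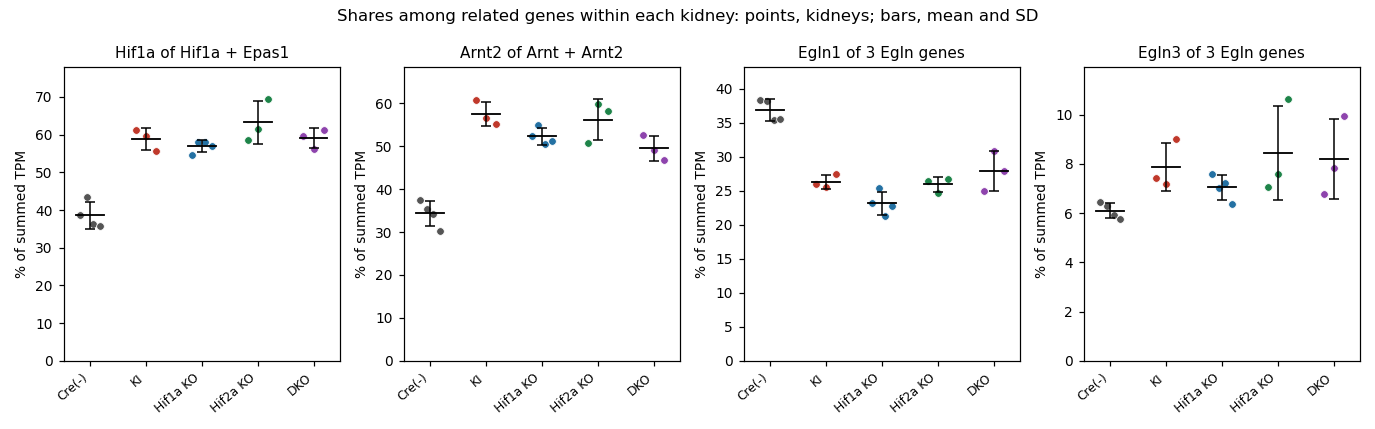
Share of TPM (percent) held by Hif1a, Arnt2, Egln1 and Egln3 among their relatives in each kidney (points), with the mean and SD of each group (bars). The Hif1a share is 35.7 to 43.6% in Cre(-) kidneys and 54.7 to 69.5% in the 13 Cre(+) kidneys.

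Of the 47 member transcripts, 28 reached 1 TPM in at least 1 library and 22 were tested. Of these 22, 5 were called in KI against Cre(-), 3 higher and 2 lower, where 24.3% of all transcripts tested were called. They were Vhl-201 (log2 fold change 1.48, edgeR adjusted p = 1.27e-06), Arnt2-207 (1.3, edgeR adjusted p = 0.000119), Hif1a-201 (1.19, SE 0.21, edgeR adjusted p = 0.000529), Epas1-201 (-0.28, edgeR adjusted p = 0.0186) and Egln1-201 (-0.51, edgeR adjusted p = 0.00284). The share of the largest transcript was tested for the 5 members with at least 2 sizeable transcripts (Hif1a, Hif3a, Arnt, Arnt2 and Egln2), and 0 of 5 separated Cre(+) from Cre(-) kidneys, where 3.29% of 8571 genes did (exact permutation p from 0.282 to 0.863).

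Hif1a has an upstream first exon, used by Hif1a-202 at chr12:73901375-73901498, and a downstream one, used by Hif1a-201 at chr12:73907904-73908324, whose starts lie 6529 bases apart. Hif1a-201 stood at 11.9, 15.9, 23.5 and 23.4 TPM in Cre(-) and at 60.2, 67.0 and 47.6 TPM in KI kidneys. Hif1a-202 stood at 12.0, 17.7, 4.86 and 3.53 TPM in Cre(-) and at 17.7, 11.4 and 9.12 TPM in KI kidneys, and was not called (log2 fold change -0.02, SE 0.44, edgeR adjusted p = 0.99). The spread among controls followed the HIF1af/f allele, so the pooled comparison mixes both kinds of control. The KI kidneys carried no such allele. Every KI value of Hif1a-202 lay above the controls without it (4.86 and 3.53 TPM), and the KI range overlapped the controls with it. At the level of single transcripts, KI was not tested against either kind of control alone.

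Hif1a-202 made up 50.1 and 51.5% of Hif1a TPM in the Cre(-) kidneys with HIF1af/f and 16.6 and 12.9% in those without. It made up 22.7, 14.0 and 15.6% in KI, 22.8, 18.1 and 19.8% in Hif2a KO, 24.2, 42.1, 26.0 and 28.1% in Hif1a KO, and 25.5, 29.5 and 35.5% in DKO kidneys. Over all groups the 9 kidneys with HIF1af/f had 24.2 to 51.5% (median 29.5%) and the 8 without had 12.9 to 22.8% (median 17.3%), without overlap. Of 8571 genes, 0.035% (Aes, Bag2 and Hif1a) had a largest-transcript share that separated these sets of kidneys. For Hif1a that transcript is Hif1a-201 and not Hif1a-202. The Hif1a-201 sets lay close, with a highest share of 73.9% in Hif1a KO and a lowest of 74.6% in Hif2a KO kidneys. The Hif1a-202 separation was noticed in the values and is given as a description. Assignment of reads to transcripts is an estimate.

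**Figure D4:**
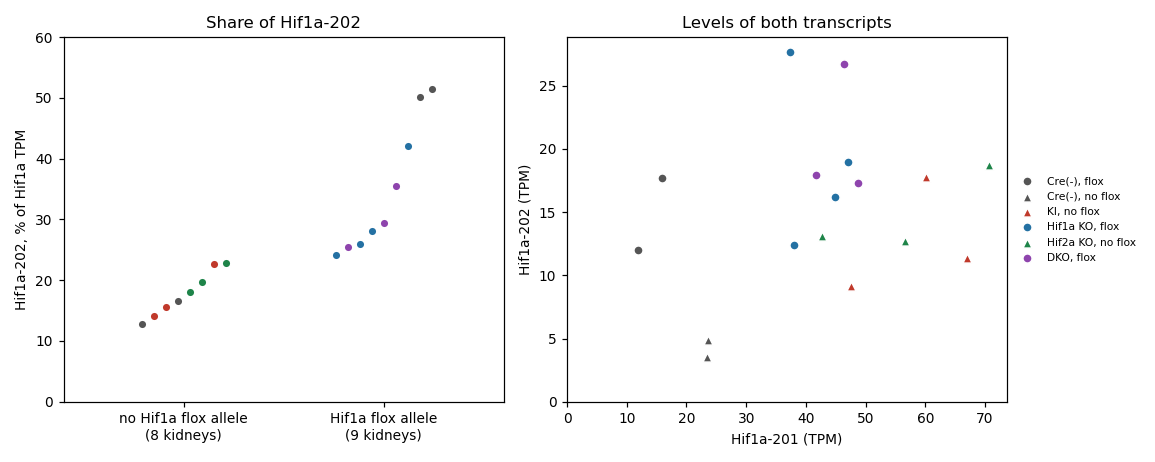
Left, the Hif1a-202 share of Hif1a TPM (percent) in kidneys without and with HIF1af/f, in order of value; right, Hif1a-202 against Hif1a-201 (TPM), coloured by group, with circles for kidneys that carry HIF1af/f. The Hif1a-202 share is 24.2 to 51.5% with the allele and 12.9 to 22.8% without it.

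Among the other genes of the pathway, calls in KI against Cre(-) are to be read against the 60.9% of all genes called there. Of 8 partners of VHL in its ubiquitin ligase, 1 was called higher (Ube2d1, a ubiquitin-conjugating enzyme, 0.24) and 3 lower, among them Cul2, the scaffold (-0.50), and Eloc, the elongin C adaptor (-0.42), with a median of -0.05. Of 20 other modifiers of the alpha subunits or hydroxylases, 6 were called higher and 4 lower, with a median of 0.04. Rack1, which promotes HIF1a degradation without oxygen sensing, stood at 1.26, and Cited4, which competes for the coactivators, at 1.07. Siah2, a ligase that acts on EGLN proteins, stood at -0.95, and Rwdd3, which promotes sumoylation, at -1.03. P4htm, a membrane-bound prolyl hydroxylase of the family, was not called (0.14, edgeR adjusted p = 0.622). Of 14 other bHLH-PAS factors, 1 was called higher (Ahr, the dioxin receptor, 0.82) and 2 lower (Per3, -0.65, and Clock, -0.34, both of the circadian clock). Without single kidneys the Ube2d1, Per3 and Clock calls were lost for 5, 5 and 4 of 7 kidneys, and on log2(TPM + 1) Eloc and Clock stood above 0, at 0.13 and 0.14. Over the alternatives Cul2 ran from -0.56 to -0.04, Rwdd3 from -1.22 to -0.40 and Per3 from -0.85 to -0.12. None of these stayed called in all alternatives.

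HIF targets held calls in both directions, again beside a background of 60.9%. Of 24 targets in glycolysis and survival, 9 were called higher and 7 lower in KI against Cre(-), with a median of -0.01. Hk2, the inducible hexokinase, stood at 1.01 to 2.47 CPM in Cre(-) and 355 to 477 CPM in KI kidneys (log2 fold change 8.03), and Slc16a3, a lactate exporter, rose by 3.63. Car9, a carbonic anhydrase and a standard hypoxia marker, stood at -2.63 and Ndrg1 at -1.06. Car9 was scarce, at 3.71 to 6.00 CPM in Cre(-) and 0.571 to 1.09 CPM in KI kidneys. Its value ran from -2.68 to -1.21 over the alternatives and stayed called. Of 13 tested targets in angiogenesis, erythropoiesis and HIF2 signalling (14 listed, Epo not tested), 9 were called higher and 4 lower, with a median of 1.40. Hmox1, heme oxygenase, stood at 2.75, while Angptl4 stood at -1.41 and Tfrc, the transferrin receptor, at -1.37. The Angptl4 call was lost without Cre(-) kidney 4, KI kidney 1 or KI kidney 2 (edgeR adjusted p = 0.0785, 0.114 and 0.0929).

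Against KI, the glycolysis and survival list had 4 genes called lower and 1 higher in Hif1a KO, 0 lower and 1 higher in Hif2a KO, and 9 lower and 2 higher in DKO kidneys. Of all genes, 5.44%, 1.39% and 12.7% were called in these comparisons, which share the 3 KI kidneys. In Hif1a KO kidneys Slc16a3 stood at -1.79 (edgeR adjusted p = 0.019), Ankrd37 at -1.64 (edgeR adjusted p = 0.0394), Hk2 at -1.37 (edgeR adjusted p = 0.0457) and P4ha1, a collagen prolyl hydroxylase, at -0.79 (edgeR adjusted p = 0.00851). Without KI kidney 3, Slc16a3 shrank to -0.87 and Ankrd37 to -1.01. Slc16a3 ran from 8.39 to 37.8 CPM within KI, and Ankrd37 from 0.697 to 1.73 CPM in Hif1a KO kidneys. Pfkfb4, a regulator of glycolytic flux that was named after its values had been seen, was the gene called higher in Hif1a KO (0.58, edgeR adjusted p = 0.0337) and in Hif2a KO kidneys (0.66, edgeR adjusted p = 0.0489). Hk2 stood at 85.7 to 243 CPM in Hif1a KO kidneys, above every Cre(-) kidney. Over the alternatives P4ha1 ran from -0.82 to -0.78, and like Slc16a3, Ankrd37, Hk2 and Pfkfb4 it did not stay called in all of them. The P4ha1 call held without any single kidney. The others were lost without KI kidney 3, Hif1a KO kidney 1 or Hif1a KO kidney 3 (edgeR adjusted p for Slc16a3 0.0874, 0.0555 and 0.0574), for Ankrd37 also without Hif1a KO kidney 2 or 4, for Hk2 also without KI kidney 1 or 2 or Hif1a KO kidney 4, and for Pfkfb4 in Hif1a KO also without KI kidney 1 or 2. The Pfkfb4 call in Hif2a KO was lost without any of the 6 kidneys.

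In the angiogenesis and HIF2 list, 1 gene was called higher and 2 lower in Hif1a KO, 0 in Hif2a KO (5 at an unadjusted p under 0.05) and 5 lower in DKO kidneys, each against KI. Of all 17011 genes, 3262 were at an unadjusted p under 0.05 in Hif2a KO against KI. Angptl4 rose in Hif1a KO kidneys by 2.34 (edgeR adjusted p = 0.0227), from 17.5 to 60.1 CPM in KI to 134 to 249 CPM, and lost its call without KI kidney 1 or 2 or Hif1a KO kidney 1. It stood at 20.0 to 41.7 CPM in Hif2a KO kidneys. In DKO kidneys, which also carry the Hif1a deletion, Angptl4 stood at 13.6 to 68.5 CPM. Ccnd1, cyclin D1, stood at -0.81 (edgeR adjusted p = 0.0214) and Slc11a2, an iron transporter, at -0.72 (edgeR adjusted p = 0.0294) in Hif1a KO kidneys. Ccnd1 lost its call without KI kidney 1 or 2 or Hif1a KO kidney 1 or 3, and Slc11a2 without any of the 3 KI kidneys or Hif1a KO kidney 1 or 3. Hmox1 stood at -1.31 in DKO kidneys (edgeR adjusted p = 0.00783). Among the bHLH-PAS factors, Sim2 was called higher in Hif1a KO (0.77, edgeR adjusted p = 0.0403) and DKO kidneys (0.90, edgeR adjusted p = 0.015), the first call being lost without KI kidney 2 or 3 or Hif1a KO kidney 1, 3 or 4.

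**Figure D5:**
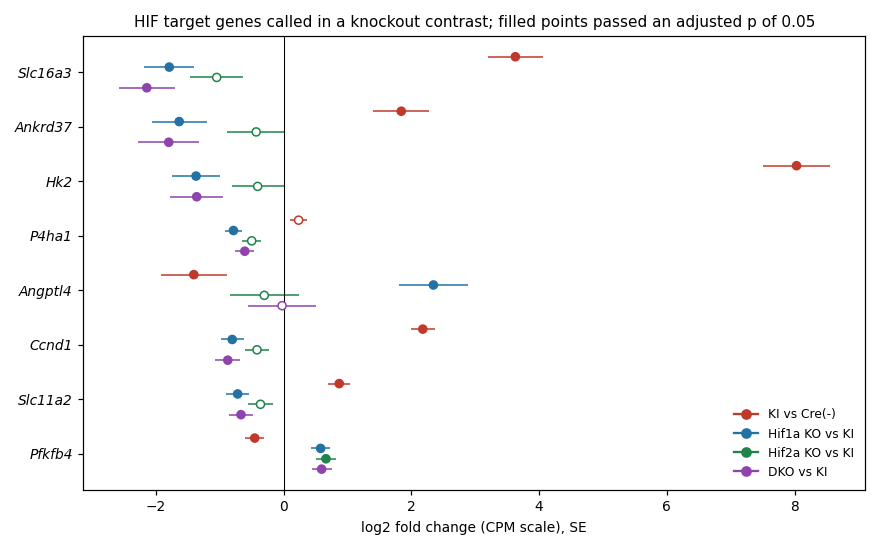
Log2 fold change with standard error of the named HIF targets that were called in a knockout comparison, in KI against Cre(-) and in each knockout group against KI, with filled points for calls. Hk2 lies at 8.03 in KI against Cre(-) and at -1.37 in Hif1a KO against KI.

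Tissue markers differed in these comparisons as well. Leukocyte markers summed to 1372 to 1461 CPM in Hif1a KO, 1583 to 1658 CPM in Hif2a KO and 1101 to 1473 CPM in DKO. These sums lay below every KI kidney, as Vhl did. The median leukocyte marker was higher than in KI, at log2 fold changes of 0.36, 0.54 and 0.34. Of 9 markers, 1, 0 and 1 were called lower and 1, 0 and 1 higher, so the list did not fall as a whole. Markers of the thick limb, distal tubule and collecting duct summed to 1886 to 2801 CPM in KI and to 3565 to 6503, 3246 to 5278 and 4289 to 6485 CPM in the knockout groups. Proximal tubule markers summed to 950 to 2787 CPM in Hif1a KO, 729 to 2515 CPM in Hif2a KO and 1638 to 2785 CPM in DKO kidneys, and 6, 0 and 7 of 10 were called higher than in KI. Fibroblast and pericyte markers summed to 974 to 1104, 1122 to 1161 and 1033 to 1490 CPM in these groups, against 790 to 835 CPM in KI kidneys. Adipocyte markers ranged from 81.9 to 2038 CPM within the KI group. The part of these markers in the Vhl and Hif3a values was not tested.

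Likeness between genes was measured as the root mean square distance between log2 CPM profiles over the 17 kidneys, each centred on its own mean. The genes closest to Hif1a were Oxr1 (0.101), Capn1 (0.115) and Ankrd50 (0.116), and those closest to Epas1 were Slain2 (0.086), Rnf6 (0.108) and Smim10l1 (0.109). Egln3 had no neighbour as close, the nearest being Cant1 (0.163), Dedd2 (0.167) and Casp9 (0.175). For 3 further members, chosen after their values had been seen, the nearest genes included Cln3 (0.101) and Rragc (0.108) for Vhl, and were Zfp651 (0.111), Bax (0.114) and Rbm3 (0.116) for Arnt2, and Fkbp5 (0.385), Zbtb16 (0.530) and Tsc22d3 (0.564) for Hif3a. Fkbp5 stood at 259 to 378 CPM in Hif1a KO and at 54.1 to 90.3 CPM in Hif2a KO kidneys, without overlap (log2 difference 2.12, edgeR adjusted p = 0.0437). Tsc22d3 differed by 1.66 (edgeR adjusted p = 0.0437). Fkbp5 also ran from 76.2 to 210 CPM within Cre(-) and from 62.7 to 236 CPM within KI kidneys. Whether the differences that Hif3a shares with these genes come from the deletions was not tested.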

How the data were processed

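Kidney polyA RNA of 17 samples had been sequenced with a stranded mRNA kit, and groups were taken from the sample labels. The submitters' processing notes name Trim Galore 0.6.6, cutadapt 2.5 and STAR 2.7.9a and the builds hg38 and GRCm38; the files list mouse transcripts. The authors deposited estimated counts per transcript and library, in which shared reads were split between transcripts by a model, and the TPM made from them. Of 119353 transcripts, 116770 (97.8%) matched the GENCODE annotation of GRCm38. Expected counts were summed per gene, rounded, filtered (filterByExpr, minimum count 10, 18960 genes removed) and tested in a single fit of all groups with edgeR 4.0.16 (TMM, quasi-likelihood test) in R 4.3.3, with Benjamini-Hochberg adjustment over 17011 genes and calls at an adjusted p of 0.05. DESeq2 1.42.0 and limma 3.58.1 on log2(TPM + 1) or log2(TPM + 0.1) were alternatives. The code was tested on simulated data. Shares were compared by exact permutation tests. Named pathway genes were, per list, the largest called changes in each direction in KI against Cre(-) and up to 4 called in a deletion contrast, with P4htm named in any case; for Hif1a, Epas1 and Egln3 the 3 most similar genes were named. A few genes that these rules select are not reported here. One list symbol on 2 gene IDs kept the more abundant ID. Members, lists and tests were chosen with earlier results of these data known.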

Additional observations from a re-analysis of the deposited data

Results flagged for a closer look

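In groups of 4, the gap between an extreme kidney and its nearest neighbour was compared with the group's range. Of 20 groups of values checked, 2 held a kidney that stood apart, and chance gives about 1 in 20. Arnt stood at 58.3 CPM in Hif1a KO kidney 1, against 63.6 to 64.4 CPM in the others. Hif1an stood at 55.8 CPM in Hif1a KO kidney 3, against 59.4 to 60.1 CPM in the others. Neither gene was called by edgeR in any comparison, while limma on log2(TPM + 1) called both higher in KI than in Cre(-) kidneys (0.34, adjusted p = 0.00506, and 0.54, adjusted p = 0.000106), where the all-gene median was 0.38.

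The Hif3a level differed between Hif1a KO and Hif2a KO kidneys, by a log2 difference of 2.63 in the direct test (edgeR adjusted p = 0.0336).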

How the results depend on the processing

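The calls of Hif1a, Arnt2 and Vhl in KI against Cre(-) held under every alternative run. Under DESeq2, 2 members were called in each of Hif1a KO, Hif2a KO and DKO against KI and for the averaged Hif1a deletion. Fitting the groups of the contrast alone gave 0 in Hif1a KO against KI, and no filter on low counts gave 1 for the averaged Hif2a deletion. On log2(TPM + 0.1) the counts were 0 for Hif1a KO and 0 for DKO against KI, 1 for the averaged Hif2a deletion and 9 in Hif1a KO against Cre(-). On log2(TPM + 1) the count in Hif1a KO against KI was 1 but of another gene, Hif3a higher (0.84) in place of Vhl lower (adjusted p = 0.0725). The other counts on that scale were 0 for DKO against KI, 1 for the averaged Hif2a deletion, 9 in Hif1a KO against Cre(-) and 8 member transcripts. The cause was not tested beyond the all-gene shift of these scales. For DESeq2 and both TPM scales the share of all genes or transcripts called is not given here. These member counts therefore have no background to be read against. Epas1 turned on log2(TPM + 1) and log2(TPM + 0.1), to 0.14 and 0.15 in KI, 0.0243 and 0.025 in Hif1a KO and 0.0442 and 0.0453 in DKO against Cre(-), as did Eloc (0.13 and 0.13) and Clock (0.14 and 0.15) in KI.

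Without single kidneys, the members called ranged from 0 to 1 in Hif1a KO against KI, 0 to 2 in Hif2a KO against KI, 0 to 1 in Hif1a KO against Hif2a KO, 0 to 1 for the averaged Hif1a and 1 to 3 for the averaged Hif2a deletion, and member transcripts from 4 to 6. The second-exon share difference ranged from -0.0254 to 0.074 for Hif1a and from -0.0249 to 0.0106 for Epas1 (percentage points). Among the largest-transcript shares, none of which passed its test (differences in percentage points), Arnt turned to 0.96 with KI alone and Arnt2 to -2.80 on counts, and without single kidneys Arnt2 ranged from -3.21 to 3.22 and Egln2 from -4.33 to 0.96.

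Replicate numbers did not pair the kidneys: over 31 same-number pairs the correlation of deviations was -0.22 to 0.25 with a median of -0.03. With a replicate block, the members called were 0 in Hif1a KO against KI, 0 in Hif1a KO against Hif2a KO and 1 for the averaged Hif2a deletion. Depth limits Hif3a most, whose lowest kidney held 0.962 CPM.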
